A study of Mus musculus with 6 samples.

Results

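Interleukin-1 (IL-1) cytokines, their receptors and the inflammasome were examined as a set of 9 genes, chosen by symbol from the 18824 genes of a mouse skin table in FPKM, a unit scaled to transcript length and library size. The set holds the agonist cytokines Il1a, Il1b and Il18, the receptor antagonist Il1rn, the signalling receptor Il1r1 with its partner Il1rap, the decoy receptor Il1r2, the inflammasome sensor Nlrp3 and the protease Casp1. All 9 were in the table under these symbols, and all 9 passed the filter on low values. The 6 libraries came from whole skin of C57BL/6j mice treated with MC903, a topical vitamin D analogue used to bring on inflammation that resembles atopic dermatitis. A group called CCR3 by its titles (replicates 1, 2 and 4) was compared with a group called VEH, for vehicle (replicates 1, 2 and 4). For the CCR3 group the series text gives SB328437 (which blocks the chemokine receptor CCR3), whereas the treatment label of the same libraries reads SC144 (which blocks gp130, a subunit of cytokine receptors). Which of them was given cannot be told apart from the labels, and the names CCR3 and VEH are used for the groups. Skin without MC903 was not analysed here, and the sources used here give neither age nor sex. The labels do not say whether each replicate was a mouse of its own. The p-values thus measure only the spread between these libraries, which may be technical.

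IL-1α and IL-1β bind the receptor IL1R1, which then recruits IL1RAP and signals through the adaptor MYD88 to NF-kB. The antagonist encoded by Il1rn occupies the same receptor without signalling, and IL1R2 binds the cytokines but lacks the signalling domain. IL-1β and IL-18 are made as inactive precursors that caspase-1 cleaves once a sensor such as NLRP3 has assembled an inflammasome. In skin, keratinocytes are a known store of IL-1α and IL-18, and infiltrating myeloid cells are known makers of IL-1β. The values below are levels of messenger RNA, so cleavage and release of the proteins were not measured.

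Il1b and Nlrp3 were the members called lower in every setting tried, and Il1a, which was not called, is the protein-coding neighbour of Il1b. Their promoters are shown for that reason, from 250 bases before to 50 bases after the annotated start. Sequences and positions are from RefSeq, build GRCm38.p6, read 5′ to 3′ on the strand of the gene, which may not be the build behind the FPKM values. Capitals mark TATAAA in Il1a and Il1b, TGANTCA (an AP-1 type motif) in Il1a, and a match to the NF-kB consensus in Nlrp3, for which the upstream of its 2 annotated windows is printed.
Il1b promoter, chr2:129371090-129371389, minus strand: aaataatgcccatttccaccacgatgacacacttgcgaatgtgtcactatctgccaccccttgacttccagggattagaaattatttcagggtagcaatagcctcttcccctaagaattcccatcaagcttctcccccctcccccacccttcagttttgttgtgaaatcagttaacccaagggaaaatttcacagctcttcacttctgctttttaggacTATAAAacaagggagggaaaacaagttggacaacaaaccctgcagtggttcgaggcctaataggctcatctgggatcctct
Il1a promoter, chr2:129309923-129310222, minus strand: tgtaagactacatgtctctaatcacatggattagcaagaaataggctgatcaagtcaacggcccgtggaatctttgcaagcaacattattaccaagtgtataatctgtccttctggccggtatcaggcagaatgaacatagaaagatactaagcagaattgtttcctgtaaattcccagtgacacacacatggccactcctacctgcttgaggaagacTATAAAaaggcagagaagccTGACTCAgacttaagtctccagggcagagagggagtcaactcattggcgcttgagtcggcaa
Nlrp3 promoter, chr11:59541319-59541618, plus strand: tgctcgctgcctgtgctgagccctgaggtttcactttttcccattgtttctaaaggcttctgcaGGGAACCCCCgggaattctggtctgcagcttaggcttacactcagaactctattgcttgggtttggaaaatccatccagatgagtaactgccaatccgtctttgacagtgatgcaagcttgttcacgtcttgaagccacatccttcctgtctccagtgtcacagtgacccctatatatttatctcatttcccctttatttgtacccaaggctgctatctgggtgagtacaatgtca

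TATAAA on the strand of the gene began 31 bases before the start of Il1b and 32 bases before that of Il1a, and 8.32% of 32851 promoter windows of the same length held it. TGANTCA, searched on both strands, began 12 bases before the start of Il1a and also stood in 1 window of Il1rn, against 7.81% of all windows. The NF-kB consensus, searched on both strands, was found in the printed Nlrp3 window and in 1 window of Il1r1, against 4.51% of all windows. TTGCNNAA, a C/EBP type motif searched on both strands, was in 1 window of Il1r1 and in 10.8% of all windows. The 9 genes had 13 windows in all. None of these motifs overlapped another in the members' windows, and a missing match says only that these letters are not in the window.

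Of the 9 genes, Il1b, Nlrp3 and Casp1 were lower in CCR3 and none was higher, by limma with Benjamini-Hochberg adjustment over all 13063 tested genes at 0.05. Among all tested genes, 3.74% were called in either direction, 2.37% lower and 1.36% higher. These were 310 genes lower and 178 higher, or 261 and 230 with median-centred values and 173 and 158 with equal FPKM sums. At 0.05 with p unadjusted, 4 of the 9 were lower and 2 higher, where 15.1% of all tested genes were lower and 8.03% higher. The median log2 fold change of the 9 was -0.21, and that of all tested genes -0.04. In 4 genes (Il1b, Il1rn, Nlrp3 and Casp1) all CCR3 values lay below all VEH values, where 18.3% of tested genes did so. In 2 (Il1r1 and Il1r2) they lay above, where 10.4% did. In bulk skin, fewer cells of a type and less RNA per cell cannot be told apart.

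**Figure D1:**
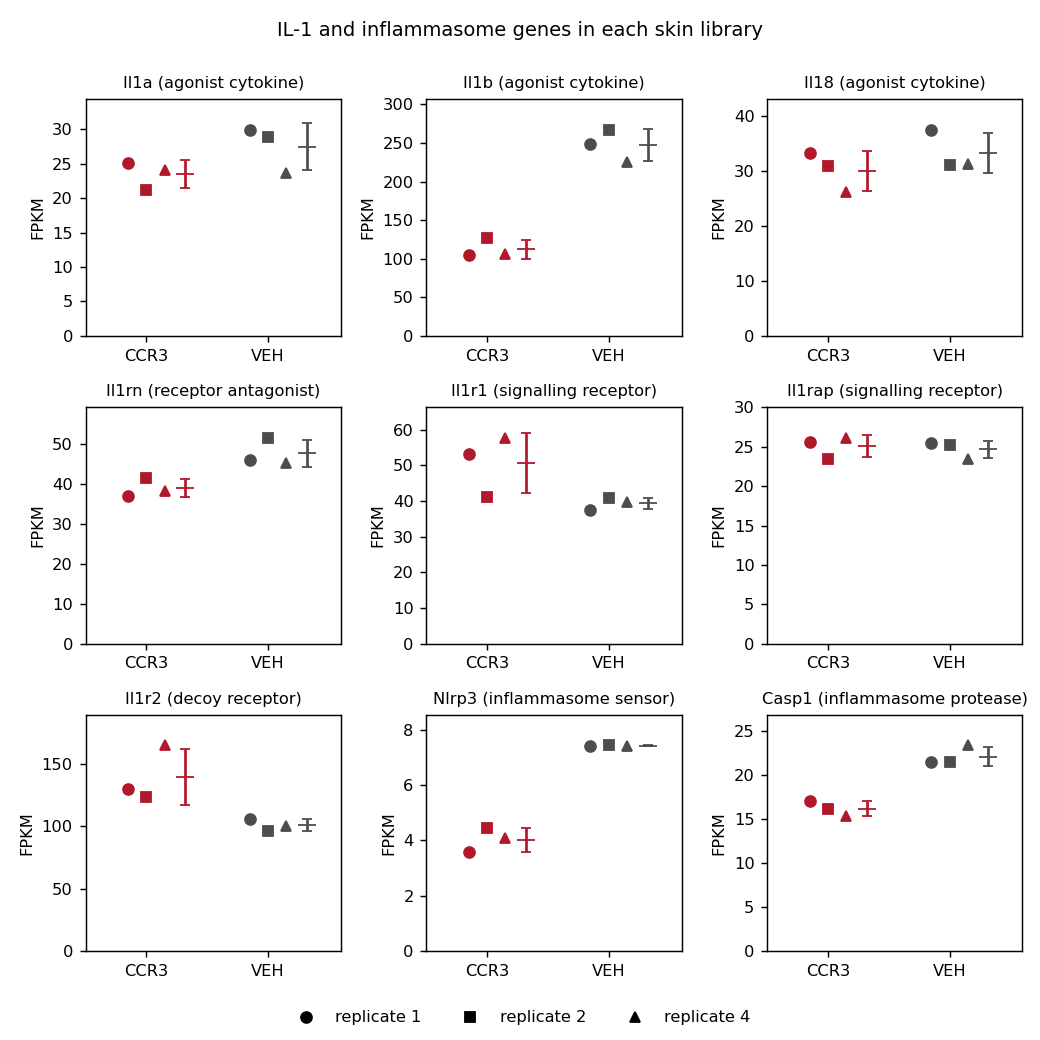
FPKM of the 9 genes in each library (y axes in FPKM, starting at 0), with CCR3 in red and VEH in grey; symbols give the replicate number, and the bar beside each group gives the mean and SD of 3 libraries. Il1b and Nlrp3 sit lower in all CCR3 libraries, Il1r2 sits higher, and Il1rap overlaps.

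Among the agonist cytokines, Il1b (Entrez gene 16176), the main secreted IL-1 of activated myeloid cells, had 104.64, 126.70 and 106.34 FPKM in CCR3 replicates 1, 2 and 4, against 248.88, 266.62 and 225.77 FPKM in VEH replicates 1, 2 and 4. The highest CCR3 library was thus well below the lowest VEH library, and the CCR3 mean was 45.6% of the VEH mean. The log2 fold change of Il1b on the log2(FPKM + 1) scale was -1.13 ± 0.098 (SE, limma adjusted p = 0.00255), and it passed the threshold in all 12 alternative settings, with values from -1.22 to -1.07.

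Il1a (16175), whose product is active without cleavage by caspase-1, had 25.15, 21.17 and 24.03 FPKM in CCR3, against 29.85, 28.90 and 23.60 FPKM in VEH. The groups overlapped, because VEH replicate 4 lay below CCR3 replicates 1 and 4. Its log2 fold change was -0.21 with a 95% interval from -0.45 to 0.02 (limma adjusted p = 0.252). Il18 (16173), a cytokine with a receptor pair of its own, had 33.23, 30.90 and 26.10 FPKM in CCR3, against 37.42, 31.04 and 31.31 FPKM in VEH. The groups overlapped, and the log2 fold change was -0.14 with a 95% interval from -0.39 to 0.10 (adjusted p = 0.45).

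Il1rn (16181), the gene of the receptor antagonist, had 37.04, 41.57 and 38.29 FPKM in CCR3, against 46.01, 51.53 and 45.28 FPKM in VEH. The groups did not overlap, with CCR3 lower. The gene missed the threshold, with a log2 fold change of -0.28 ± 0.0753 (SE) and a limma adjusted p of 0.0821 (0.0712 to 0.212 over the alternatives). Its level was then set against that of Il1b within each library. The Il1rn to Il1b ratio was 0.354, 0.328 and 0.36 in CCR3, against 0.185, 0.193 and 0.201 in VEH, a log2 difference of 0.85. Every CCR3 ratio was above every VEH ratio, and the 2-sided exact permutation test gave p = 0.1, the smallest that 3 against 3 libraries allow. Il1rn nonetheless remained under Il1b in every library.

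**Figure D2:**
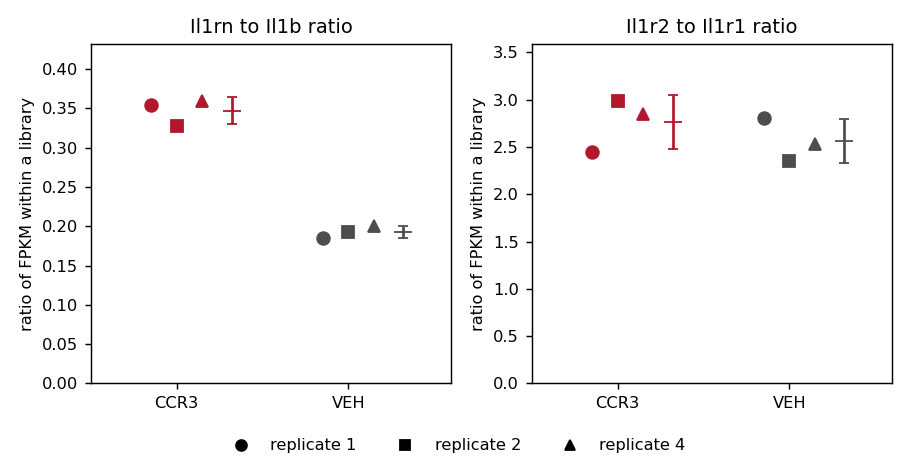
Ratio of FPKM within each library (y axes from 0) for Il1rn over Il1b and for Il1r2 over Il1r1, with CCR3 in red and VEH in grey, symbols for replicate numbers and bars for the mean and SD of 3 libraries. The antagonist ratio is 0.328 to 0.36 in CCR3 and 0.185 to 0.201 in VEH, and the receptor ratio overlaps between groups.

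No receptor gene passed the threshold. Il1r2 (16178), the decoy, had 130.01, 123.12 and 164.42 FPKM in CCR3, against 105.71, 96.02 and 100.24 FPKM in VEH. All CCR3 libraries were above all VEH libraries, with replicate 4 the highest, but the call was missed, with a log2 fold change of 0.45 (95% interval 0.20 to 0.71, limma adjusted p = 0.0635). It passed without CCR3 replicate 2 (adjusted p = 0.0447), without CCR3 replicate 4 (0.0241) and with median-centred values (0.0475), and its adjusted p ranged up to 0.207 over the alternatives.

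Il1r1 (16177), the signalling receptor, had 53.08, 41.19 and 57.74 FPKM in CCR3, against 37.56, 40.80 and 39.59 FPKM in VEH. The groups did not overlap, although CCR3 replicate 2 was close to the highest VEH library. Its log2 fold change was 0.34 (95% interval 0.08 to 0.61, limma adjusted p = 0.137), and it was called in no alternative except without CCR3 replicate 2 (adjusted p = 0.0199). Il1rap (16180), the shared partner chain, had 25.59, 23.45 and 26.14 FPKM in CCR3, against 25.47, 25.19 and 23.47 FPKM in VEH. These values overlapped, and the 95% interval of the log2 fold change of 0.02 ran from -0.14 to 0.18. The ratio of decoy to signalling receptor was compared within libraries. The Il1r2 to Il1r1 ratio was 2.45, 2.99 and 2.85 in CCR3, against 2.81, 2.35 and 2.53 in VEH. These overlapped, with a log2 difference of 0.10 (2-sided exact permutation p = 0.4).

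Both inflammasome genes were lower. Nlrp3 (216799), the sensor, had 3.58, 4.44 and 4.08 FPKM in CCR3, against 7.40, 7.43 and 7.41 FPKM in VEH. The VEH libraries were nearly identical and the CCR3 libraries all lower, with a CCR3 mean at 54.4% of the VEH mean. The log2 fold change was -0.74 ± 0.0807 (SE, limma adjusted p = 0.00574), and it passed in all 12 alternatives (highest adjusted p = 0.0418). Casp1 (12362), the protease, had 17.08, 16.21 and 15.39 FPKM in CCR3, against 21.53, 21.47 and 23.40 FPKM in VEH. The groups did not overlap, and the log2 fold change was -0.43 ± 0.0679 (SE, limma adjusted p = 0.0185). The call of Casp1 was lost without VEH replicate 1, 2 or 4 (adjusted p = 0.0849, 0.0575 and 0.0909), with the log2 fold change between -0.46 and -0.39 in all alternatives.

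**Figure D3:**
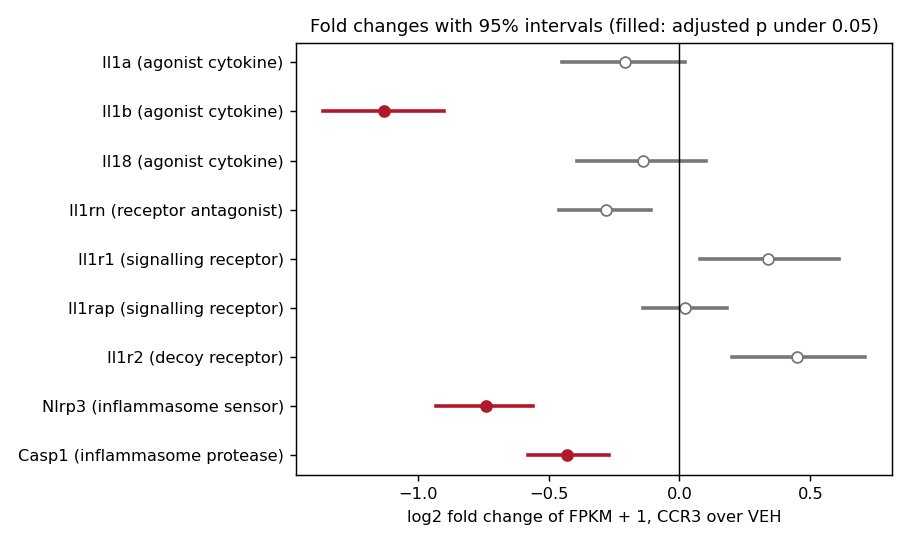
Log2 fold change of FPKM + 1 (x axis, CCR3 over VEH) of the 9 genes with 95% intervals from limma for each gene alone; filled red points mark an adjusted p under 0.05. Il1b (-1.13), Nlrp3 (-0.74) and Casp1 (-0.43) are filled, and the receptor genes lie at or above 0.

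FPKM is scaled to transcript length, so levels can be set in order within a group. In CCR3 the order by mean FPKM was Il1r2 (139.2), Il1b (112.6), Il1r1 (50.67), Il1rn (38.97), Il18 (30.08), Il1rap (25.06), Il1a (23.45), Casp1 (16.23) and Nlrp3 (4.033). The ranges of Il1r2 and Il1b overlapped in CCR3, as did those of Il1r1 with Il1rn, Il18 with Il1rap, and Il1rap with Il1a. In VEH the order was Il1b (247.1), Il1r2 (100.7), Il1rn (47.61), Il1r1 (39.32), Il18 (33.26), Il1a (27.45), Il1rap (24.71), Casp1 (22.13) and Nlrp3 (7.413), and Il1a and Il1rap alone overlapped between neighbours. Il1b thus led in VEH, and Il1r2 had the highest mean in CCR3. Among all tested genes 96.7% had a lower mean FPKM than Il1b and 30.1% a lower mean than Nlrp3.

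The CCR3 libraries did not rank alike across the genes. CCR3 replicate 2 was the highest of its group for Il1b, Il1rn and Nlrp3 and the lowest for Il1a, Il1r1, Il1rap and Il1r2. Relative to the VEH mean, its Il1b stood at -0.95 on the log2(FPKM + 1) scale, against -1.23 and -1.21 in CCR3 replicates 1 and 4. Its Il1r1 stood at 0.07, against 0.42 and 0.54 in CCR3 replicates 1 and 4. CCR3 replicate 4 had the largest deviations of Il1r2 (0.70) and Casp1 (-0.50).

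**Figure D4:**
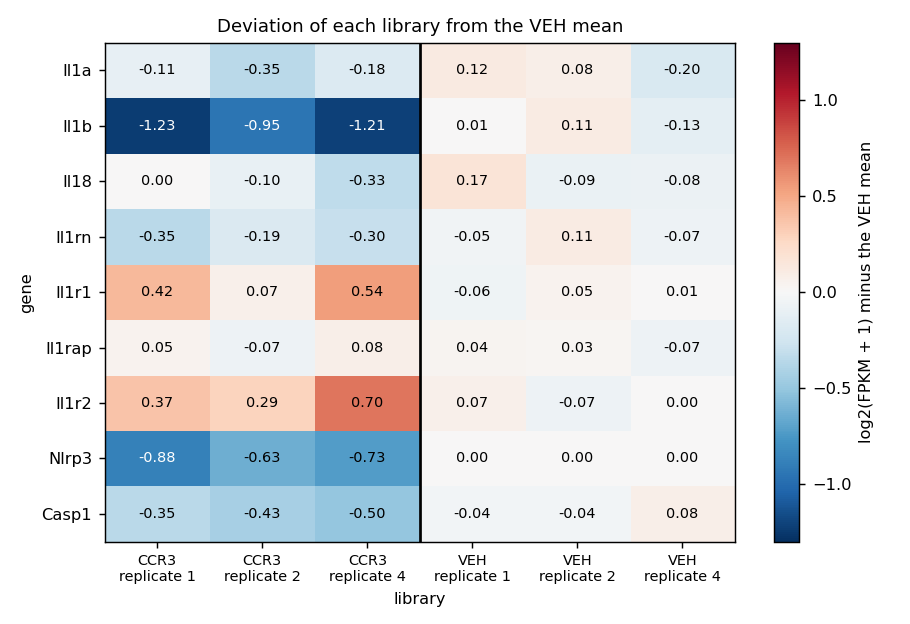
Deviation of each library (columns, CCR3 left of the line and VEH right of it) from the VEH mean for each gene (rows), as a difference of log2(FPKM + 1), with blue for lower and red for higher. Il1b runs from -1.23 to -0.95 in CCR3, and Il1r1 from 0.07 to 0.54.

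Position was not used to choose the genes, and several lie beside relatives in the RefSeq gene order. Among protein-coding genes the row Il1r2, Il1r1, Il1rl2, Il1rl1, Il18r1 and Il18rap is unbroken. Il1rl2, the receptor of IL-36, had a log2 fold change of 0.28 and Il1rl1, the receptor of IL-33, of -0.14. Il18r1, the binding chain for IL-18, had 6.99, 4.88 and 7.14 FPKM in CCR3, against 10.04, 9.03 and 10.11 FPKM in VEH, without overlap (log2 fold change -0.56, limma adjusted p = 0.0537). Il18rap, its partner chain, was at -0.20 (adjusted p = 0.371). With all libraries in, no gene of this row passed except Il1r2, and that only with median-centred values (limma adjusted p = 0.0475). Il18r1 passed without CCR3 replicate 2 or 4 (adjusted p = 0.045 and 0.024), and Il1rl2 without CCR3 replicate 4 (0.0393).

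The row that ends in Il1rn holds the IL-36 genes Il1f8, Il1f9, Il1f6 and Il1f5, with log2 fold changes of 0.02, -0.21, 0.27 and -0.16, and Il1f10, which was under the filter (0.87 to 2.09 FPKM in CCR3, 0.59 to 1.63 FPKM in VEH). None of the tested ones passed with all libraries in. Casp1 stands beside Casp4 and Casp12, which code for related caspases. Casp4, which senses bacterial lipopolysaccharide in the cell, averaged 16.08 ± 1.79 FPKM in CCR3, against 19.92 ± 1.37 FPKM in VEH (SD over 3 libraries), and Casp12 had means of 8.033 ± 1.1 FPKM (CCR3) and 10.11 ± 0.87 FPKM (VEH). Neither group pair overlapped, and neither gene passed (limma adjusted p = 0.11 and 0.144), although Casp4 did without CCR3 replicate 4 (0.0221). Casp12 is outside the lists and is given as a neighbour.

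**Figure D5:**
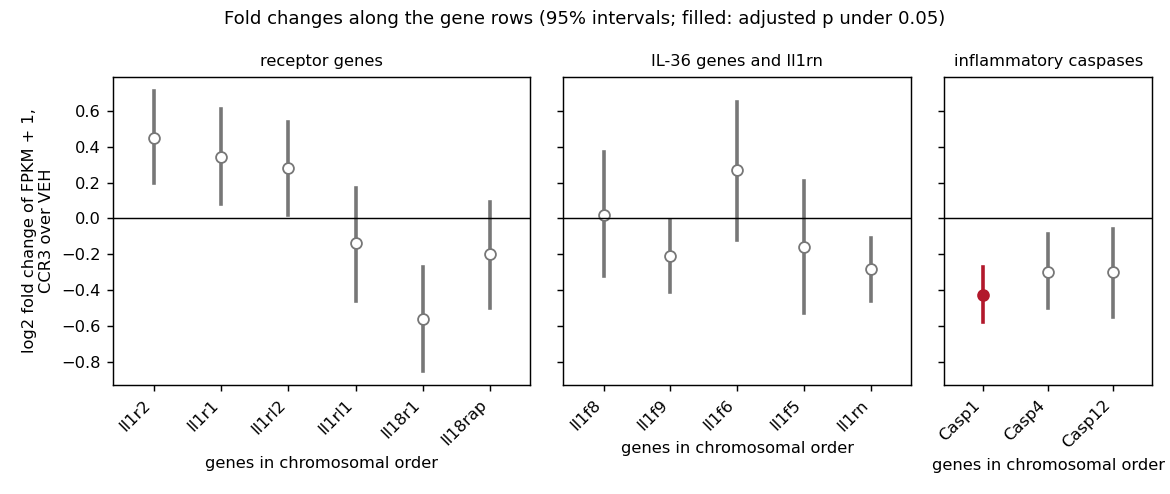
Log2 fold change of FPKM + 1 (y axis, CCR3 over VEH) with 95% intervals for each gene alone, for tested genes in chromosomal order (x axis): the receptor row, the IL-36 genes with Il1rn, and the caspases. Casp1 is the filled point (adjusted p under 0.05). In the receptor row, where no point is filled, the highest value is 0.45 at Il1r2 and the lowest -0.56 at Il18r1. The last gene, Il18rap, is at -0.20.

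Of 12 other genes of the IL-1 family, 11 were tested, with 1 lower, 0 higher and 10 not past the threshold by limma (with p unadjusted, 3 lower and 1 higher; median log2 fold change -0.16). The gene that fell was Il18bp, the secreted binding protein that holds back IL-18, with 9.01, 9.87 and 11.76 FPKM in CCR3, against 15.69, 13.59 and 14.26 FPKM in VEH. The groups did not overlap (log2 fold change -0.47, 95% interval -0.70 to -0.24, limma adjusted p = 0.0451), and leaving out any single library other than CCR3 replicate 4 lost the call, with an adjusted p up to 0.176, as did equal FPKM sums (0.0782) and no filter (0.0913). Il33, a cytokine of the nuclei of barrier cells, averaged 114.4 ± 9.87 FPKM in CCR3, against 94.96 ± 15.5 FPKM in VEH, and Il1f8 (IL-36β) 56.74 ± 12.5 FPKM in CCR3, against 54.83 ± 1.66 FPKM in VEH (SD over 3 libraries), both overlapping. Il1f8 passed without CCR3 replicate 4 (adjusted p = 0.0494).

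Of 14 genes that carry or restrain the IL-1 receptor signal, none passed by limma in either direction. With unadjusted p under 0.05, 1 was higher and 0 lower, and the median log2 fold change of the 14 was 0.02. Myd88, the adaptor, averaged 53.43 ± 6.97 FPKM in CCR3, against 57.64 ± 2.38 FPKM in VEH, with a 95% interval of the log2 fold change from -0.33 to 0.10. Tollip, a negative regulator of the receptor complex, averaged 41.17 ± 0.877 FPKM in CCR3, against 39.95 ± 0.866 FPKM in VEH, with an interval from -0.09 to 0.17 (SD over 3 libraries).

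Of 20 other genes of inflammasomes and pyroptosis, 17 were tested, with 1 higher, 1 lower and 15 not past the threshold (with p unadjusted, 2 higher and 8 lower; median log2 fold change -0.24). Nlrp6, Gsdma2 and Gsdma3 were under the filter. Txnip was the gene called higher, with 296.52, 313.47 and 382.85 FPKM in CCR3, against 205.90, 186.31 and 211.73 FPKM in VEH. Its product binds NLRP3 in some settings and is better known as an inhibitor of thioredoxin and of glucose uptake. The groups did not overlap (log2 fold change 0.71, 95% interval 0.46 to 0.95, limma adjusted p = 0.0157), and the call was lost when VEH replicate 1, 2 or 4 was left out (adjusted p = 0.0817, 0.0596 and 0.0742).

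Casp8, an initiator caspase of apoptosis that can also cleave IL-1β, averaged 29.57 ± 1.91 FPKM in CCR3, against 37.36 ± 1.39 FPKM in VEH (SD over 3 libraries) and fell (log2 fold change -0.33, limma adjusted p = 0.0432), a call lost without any single library except CCR3 replicate 4 (up to 0.155) and with median-centred values (0.0658), equal FPKM sums (0.0725) or no filter (0.0679). The pore formers Ninj1 (mean 85.27 FPKM in CCR3, 109.6 FPKM in VEH) and Gsdma (mean 74.65 FPKM in CCR3, 60.27 FPKM in VEH) pointed in opposite directions and did not pass (adjusted p = 0.141 and 0.0915). Gsdma passed without CCR3 replicate 4 (0.0164).

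Of 20 genes that IL-1 can induce, 19 were tested, with 5 lower, 0 higher and 14 not past the threshold (with unadjusted p under 0.05, 8 lower and 0 higher; median log2 fold change -0.13), and Csf2 was under the filter. IL-1 is 1 of several inducers of each of them. Il6, a cytokine of the acute phase, had 12.51, 10.66 and 11.29 FPKM in CCR3, against 23.35, 24.01 and 24.68 FPKM in VEH. Every CCR3 value was far under every VEH value, the CCR3 mean was 47.8% of the VEH mean, and the 95% interval of the log2 fold change ran from -1.17 to -0.84 (limma adjusted p = 0.00182).

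The monocyte chemokine gene Ccl2 had 31.67, 40.01 and 27.37 FPKM in CCR3, against 69.38, 84.90 and 55.85 FPKM in VEH, again without overlap (limma adjusted p = 0.0195). The neutrophil chemokine gene Cxcl2 averaged 52.73 ± 9.64 FPKM in CCR3, against 85.22 ± 7.82 FPKM in VEH, and Ptgs2, the inducible prostaglandin synthase gene, 30.14 ± 5.53 FPKM in CCR3, against 47.05 ± 2.03 FPKM in VEH (SD over 3 libraries). Icam1, an adhesion molecule for leukocytes, averaged 20.25 ± 3.1 FPKM in CCR3, against 28.95 ± 1.86 FPKM in VEH. Cxcl2, Ptgs2 and Icam1 all fell, with limma adjusted p of 0.0348, 0.0291 and 0.0458. Of the 5 genes, Il6 kept its call without each library in turn, and the other 4 lost it without at least VEH replicates 1 and 2 (adjusted p up to 0.177, for Icam1 without VEH replicate 1) and without the filter (0.0547 to 0.092). Icam1 also lost it with equal FPKM sums (0.0811). The most abundant genes that did not pass were Mmp3, a stromelysin, with 268.1 ± 29.8 FPKM in CCR3, against 293.9 ± 30.5 FPKM in VEH, and Saa3, an acute phase protein gene, with 180.9 ± 79.5 FPKM in CCR3, against 219.5 ± 56.3 FPKM in VEH (SD over 3 libraries).

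The genes nearest to the profile of Il1b were sought by the root mean squared difference, over the 6 libraries, of log2(FPKM + 1) minus the VEH mean. They were the chemokine gene Ccl7 (difference 0.0998), the hyaluronan synthase gene Has2 (0.111), Cd83, a marker of activated dendritic cells (0.128), Ccl2 (0.143) and Pgf, a growth factor of the VEGF family (0.153). Ccl7 had 62.14, 64.20 and 57.53 FPKM in CCR3, against 143.10, 163.10 and 118.12 FPKM in VEH. The other 4 had a CCR3 mean at 37.5% to 47.1% of the VEH mean. These genes were picked for their likeness, so their values are a description.

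Markers of the cells that can carry these transcripts were set beside them. The 10 macrophage markers summed to 1598, 1449 and 1744 FPKM in CCR3, against 2067, 1798 and 2102 FPKM in VEH, without overlap. Lyz2, a lysozyme gene, supplied 59.5% to 67.4% of this sum, and the other 9 markers, summed after seeing the values, overlapped (578, 553 and 707 FPKM in CCR3, against 703, 682 and 686 FPKM in VEH). By limma none of the 10 passed (with unadjusted p under 0.05, 3 lower and 0 higher). Their median log2 fold change was -0.19, with values from -0.41 for Ly6c2 and -0.39 for Lyz2 up to 0.13 for Itgam. As a percentage of the sum of 10, Il1b was 6.55%, 8.74% and 6.1% in CCR3, against 12%, 14.8% and 10.7% in VEH, and Nlrp3 was 0.255% ± 0.045 in CCR3 and 0.375% ± 0.0336 in VEH (SD over 3 libraries), both without overlap between groups. Casp1 was 1.07%, 1.12% and 0.883% of the sum of 10 in CCR3, against 1.04%, 1.19% and 1.11% in VEH, with overlap. Relative to the 9 markers without Lyz2, Casp1 was 2.95%, 2.93% and 2.18% in CCR3, against 3.06%, 3.15% and 3.41% in VEH, without overlap, so the overlap of Casp1 turned on that marker. Relative to the same 9, Il1b was 15% to 22.9% in CCR3 and 32.9% to 39.1% in VEH, and Nlrp3 0.577% to 0.804% in CCR3 and 1.05% to 1.09% in VEH, both again without overlap.

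The 10 neutrophil markers, 2 of which (S100a8 and S100a9) inflamed keratinocytes also make, summed to 3055, 2791 and 4078 FPKM in CCR3, against 2591, 3315 and 2491 FPKM in VEH. The groups overlapped, with CCR3 replicate 4 the highest. By limma none of the 6 tested passed (with unadjusted p under 0.05, 1 higher and 0 lower), and Ly6g, Ngp, Camp and Ltf were under the filter. Il1r2, which neutrophils carry, was 4.26%, 4.41% and 4.03% of this sum in CCR3, against 4.08%, 2.9% and 4.02% in VEH, with overlap. S100a8 and S100a9 made up 94.9% to 96.2% of the sum in every library, so the other 8 markers were also summed, a choice made after seeing the values. They came to 121, 106 and 155 FPKM in CCR3, against 129, 144 and 127 FPKM in VEH, with overlap. Relative to that sum, Il1r2 was 108%, 116% and 106% in CCR3, against 81.6%, 66.6% and 79.2% in VEH, without overlap. The tested markers in that sum did not move alike, with CCR3 means from 78% to 152% of their VEH means.

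T cell markers summed to 25.08 to 33.35 FPKM in CCR3 and to 41.81 to 44.48 FPKM in VEH, with 2 of 6 lower (Cd3g and Cd4) and 5 of 6 at an unadjusted p under 0.05. Mast cell markers summed to 413.2 to 459.3 FPKM in CCR3 and to 462 to 655.5 FPKM in VEH, with 1 of 6 lower (Mrgprb2) and 4 of 6 with p unadjusted. Dendritic and Langerhans cell markers overlapped (122.9 to 155.4 FPKM in CCR3, 137.7 to 171.4 FPKM in VEH), with 0 of 7 past the threshold by limma and 0 at an unadjusted p under 0.05. Keratinocyte markers, which check the labelled tissue, summed to 10569 to 14873 FPKM in CCR3 and to 10372 to 12330 FPKM in VEH, with 0 of 10 past the threshold by limma (1 higher at an unadjusted p under 0.05). Fibroblast markers (3412 to 4148 FPKM in CCR3, 3881 to 4418 FPKM in VEH) had 1 of 8 lower (Pdgfrb; also 1 with p unadjusted), endothelial markers (89.93 to 123.4 FPKM in CCR3, 119.4 to 126.1 FPKM in VEH) 2 of 6 (Kdr and Egfl7; also 2 with p unadjusted) and adipocyte markers (46.94 to 100.2 FPKM in CCR3, 101.6 to 124.8 FPKM in VEH) 1 of 4 (Lep; all 4 with p unadjusted). The calls of these 7 named markers were each lost without VEH replicate 1 and without VEH replicate 4 (adjusted p up to 0.184). Muscle markers overlapped (115.6 to 185.3 FPKM in CCR3, 65.59 to 163.8 FPKM in VEH), with 0 of 5 past the threshold by limma and 0 at an unadjusted p under 0.05. Immediate early genes, which respond to stimuli and to tissue handling, summed to 441.7 to 495 FPKM in CCR3 and to 498.4 to 624.7 FPKM in VEH, with 5 of 12 lower by the adjusted p (11 lower and 1 higher with p unadjusted). Their median log2 fold change was -0.56, and the CCR3 means of single genes ran from 4.13% to 148% of their VEH means. Of the 6 libraries, CCR3 replicate 2 had the highest keratinocyte and muscle sums (14873 and 185.3 FPKM). It had the lowest macrophage, fibroblast, endothelial and adipocyte sums (1449, 3412, 89.93 and 46.94 FPKM). Its T cell, mast cell, dendritic and immediate early sums lay between those of the other CCR3 libraries. No marker listed here was at 0 in all libraries. The part of these cell types and of handling in the values of the 9 genes was not tested.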

How the data were processed

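RNA from 6 mouse skin libraries was selected on oligo(dT) beads and primed with random hexamers, and 50 bases were read from a single end, per the labels' protocols. The submitters' processing notes name HISAT as a tool. Its version, the build, the annotation and the counter: not given in the sources used here. The authors deposited FPKM values, rounded to 2 decimals, for 18824 genes, summing to 517764 to 553305 per library. No counts are held, and the depth is unknown. For genes at 1.5 to 6 FPKM in both of 2 libraries, the fullest 0.02 wide bin of their log2 ratio held 1.11 to 1.37 times the median of its 8 neighbours over 15 pairs, which gave no step of whole reads; at lower values steps cannot be told from the rounding. Strand is not stated. In RefSeq (GRCm38.p6, names and order only), Il1b overlaps Il1bos, Il1a Gm14023, Il1rap Gm20319, Il1r2 Gm16894, and Il18 both Bco2 and Tex12, so their reads may not be told apart.

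Values were taken as log2(FPKM + 1), which understates changes of low genes. Genes with at least 1 FPKM in 3 libraries (13063, with 5761 left out) entered a 2-sided limma fit with a variance trend (limma 3.58.1, R 4.3.3), which was tested on simulated data. In 25 rows a symbol turned into a date was renamed by its Entrez number. All 161 entries of 16 gene lists were found, 4 by a RefSeq synonym. Named are the 9 genes, in each pathway list every gene past the threshold and the 2 most abundant others, in marker lists called genes where 3 or fewer, and the 5 genes nearest to Il1b. Members and lists were chosen with earlier results of these data known. Alternatives were median-centred values, equal FPKM sums, no filter, a 3 FPKM filter, pseudocount 0.1, a replicate block and each library left out in turn. Pearson's r of log2 values between libraries, over genes (not independent replicates), was 0.987 to 0.996 within groups and 0.981 to 0.991 across groups; no libraries held identical values.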

Additional observations from a re-analysis of the deposited data

How the results depend on the processing

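The count of the 9 genes lower in CCR3 was 3 in 5 of the 6 settings that keep all libraries and 2 with the replicate block, and 2 to 3 with a library left out, Casp1 being the gene lost. The count higher was 0, but 1 (Il1r2) with median-centred values and 0 to 2 with a library left out (Il1r2, and Il1r1 without CCR3 replicate 2). Over all genes, 488 calls became 220 without a filter and 233 with the replicate block, and 74 (without VEH replicate 4) to 1641 (without CCR3 replicate 4) with a library left out. The Il1rn to Il1b log2 difference ran from 0.82 to 0.89 and that of Il1r2 to Il1r1 from 0.04 to 0.19. Il1rap, Il1f8, Saa3 and Il1f5, none of them called with all libraries in, changed sign. Il1rap did so without CCR3 replicate 4 (-0.01) or VEH replicate 4 (-0.02, highest 0.06). Il1f8 did so without CCR3 replicate 1 (-0.08), CCR3 replicate 2 (-0.07) or VEH replicate 2 (-0.0014). The highest value of Il1f8 was 0.22, without CCR3 replicate 4, where it was called (limma adjusted p = 0.0494). Saa3 changed sign without CCR3 replicate 2 (0.01, lowest -0.66), and Il1f5 without CCR3 replicate 4 (0.02, lowest -0.34). The labels do not say what an equal replicate number shares. The correlation of deviations from group means between CCR3 and VEH libraries was -0.064, 0.084 and -0.03 for numbers 1, 2 and 4. CCR3 replicate 1 correlated best with VEH replicate 4 (0.144). Such correlations over all tested genes cannot exclude a pairing, because a pairing that touches few genes would leave them near 0. Under the replicate block the calls of Casp1 (adjusted p = 0.0566), Ptgs2 (0.0551), Il18bp (0.0804), Casp8 (0.087) and Icam1 (0.0928) were lost, as were those of the markers Cd3g, Lep, Mrgprb2, Pdgfrb and Kdr (0.0532 to 0.106). Of 575 values of 48 genes (those named in the text, other than Ly6c2 and Itgam, that were tested), 462 kept direction and side of the threshold, 96 lost the call, 10 gained it and 7 changed sign. The cause of these shifts was not tested. The depth of the libraries is unknown.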
